A study of Mus musculus with 31 samples.

Results

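Tcf3, Tcf12 and Tcf4 encode the mouse E proteins, known as E2A, HEB and E2-2. They were taken as the rows of a thymus and a lung table of raw counts whose Ensembl identifiers map to these symbols, and are 3 of 48881 genes in each table. All 3 passed the filter on low counts in every fit. Their counts were read in 31 libraries of 15 groups.

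E proteins are basic helix-loop-helix transcription factors that bind the DNA letters CANNTG, called an E box, as dimers with each other or with a tissue-restricted partner. Id proteins lack a DNA-binding region, pair with E proteins and keep them off DNA. E2A and HEB are known for driving early T cell genes in the thymus, and E2-2 is best known from plasmacytoid dendritic cells. The cultures address how thymocytes that have begun T cell development behave once E2A and HEB are deleted.

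All mice were of strain C57BL/6. The floxed cultures carried R26-CreERT2, R26-stop-tdTomato and E2Af/fHEBf/f, so that Tcf3 and Tcf12 could be deleted while Tcf4 was not targeted. The control cultures carried R26-CreERT2 and R26-stop-tdTomato without floxed alleles, so Cre, reporter and drug were shared by both genotypes. DN1 cells, the earliest CD4- CD8- thymocytes, or DN3 cells, a later stage, were grown on OP9-DL1 stroma, a mouse line that presents a Notch ligand, with stem cell factor, IL-2 and IL-7. The drug 4-hydroxytamoxifen (4-OHT), which switches on CreERT2, was given on day 4. Libraries were made of day 4 cultures and of cells sorted for tdTomato on days 5 and 7, with 2 libraries per precursor, genotype and day. The sort marks Cre activity at the reporter and not deletion at Tcf3 or Tcf12. Group 2 innate lymphoid cells (ILC2) were also isolated from the thymus (n = 2) and lung (n = 2) of plck-Cre; E2Af/fHEBf/f mice, called dKO, and from the lung of plck-Id1 mice (n = 3). The plck transgenes are named for the Lck promoter, which acts in T cell precursors. The Id1 mice keep unmodified E2A and HEB genes and carry an E protein inhibitor. Ages are not given, and no dKO or Id1 group has a matching wild-type group here.

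Library totals ran from 3695522 to 13065445 counts. No label says whether libraries of a group came from separate animals, so the p-values measure only the spread between these libraries. Sex differed between the genotypes. Xist was at 588 to 1901 CPM (counts scaled to an equal library total) in floxed and 4.55 to 71.4 CPM in control libraries, and 4 Y-linked genes summed to 0.508 to 26.7 and 76.4 to 191 CPM, so the effects of genotype and sex cannot be told apart. A list of 14 stromal marker genes, all detected, summed to 7251 to 9929 CPM in DN1 and 1919 to 3421 CPM in DN3 cultures on day 4, and to between 67.5 and 225 CPM on days 5 and 7. The DN1 floxed day 7 replicate b library held 8667 CPM of 10 skeletal muscle genes, against at most 524 CPM in any other culture. The genotype labels of 2 Id1 lung libraries name Id2 and Id3, and these were grouped by their titles. Id1 itself was at 25.6, 82.5 and 61.0 CPM in the 3 Id1 libraries, against 0 and 0.271 CPM in lung dKO.

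The 3 genes lie on separate chromosomes. In mouse build GRCm38 (mm10), Tcf3 (ENSMUSG00000020167) is at chr10:80409514-80433647 on the minus strand, with 21 merged exons that cover 4039 bases in GENCODE M21. Tcf12 (ENSMUSG00000032228) is at chr9:71842688-72111871 on the minus strand, with 24 merged exons of 15529 bases. No exon of another gene overlaps an exon of the 3. A gene count sums all exons, and the labels do not say which exons are floxed, so transcripts with and without those exons are not separated in these values.

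The 250 bases before a transcription start were read for Tcf3 and Tcf12, the targeted genes, because E boxes are the letters that E proteins bind. The lines give RefSeq sequence of build GRCm38.p6, minus strand, 5′ to 3′, with the letters CANNTG in capitals. They are chr10:80433636-80433885 for Tcf3, and chr9:72111820-72112069 and chr9:72111202-72111451 for the first and second Tcf12 start in the table.
Tcf3: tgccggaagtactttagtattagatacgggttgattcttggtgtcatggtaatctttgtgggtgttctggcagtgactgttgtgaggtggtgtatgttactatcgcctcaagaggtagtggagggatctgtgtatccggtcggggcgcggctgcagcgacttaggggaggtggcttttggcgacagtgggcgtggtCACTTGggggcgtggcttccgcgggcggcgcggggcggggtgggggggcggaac
Tcf12 first start: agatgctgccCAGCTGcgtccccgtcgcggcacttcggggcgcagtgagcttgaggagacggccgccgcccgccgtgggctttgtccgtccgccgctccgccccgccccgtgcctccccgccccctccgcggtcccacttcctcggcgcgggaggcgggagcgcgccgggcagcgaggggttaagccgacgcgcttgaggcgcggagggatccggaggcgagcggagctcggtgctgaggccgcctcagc
Tcf12 second start: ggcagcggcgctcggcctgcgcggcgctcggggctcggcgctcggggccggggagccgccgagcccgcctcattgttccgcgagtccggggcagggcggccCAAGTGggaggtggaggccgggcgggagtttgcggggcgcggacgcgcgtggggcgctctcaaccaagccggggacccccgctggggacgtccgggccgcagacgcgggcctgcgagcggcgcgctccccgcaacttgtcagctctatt
The Tcf3 window holds 1 E box, CACTTG, which begins 54 bases before the start. The Tcf12 windows hold CAGCTG at 240 and CAAGTG at 149 bases before their starts, and the window of the third Tcf12 start holds none. CANNTG reads the same on both strands as a frame, and 66.2% of 32851 such windows of the table hold at least 1, with a median of 1. One E box is therefore the usual number in a window of this length. These matches are letters, not sites shown to be bound.

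Tcf12 was lower in floxed cells of both precursors after 4-OHT, and its difference passed from day 5 on. On day 4, before the drug, DN1 floxed libraries held 211 and 195 CPM of Tcf12, against 176 and 167 CPM in DN1 controls. DN3 floxed libraries held 459 and 474 CPM, against 504 and 489 CPM in DN3 controls. The genotypes did not overlap in either precursor, but lay in opposite directions, and neither difference passed (0.24 ± 0.10 and -0.07 ± 0.10 on the log2 scale, adjusted p = 0.961 and 0.892). Overlap between such small groups of libraries was not counted over all genes, so it is description only, here and below. Values after ± are standard errors of log2 changes, and adjusted p-values are from edgeR's quasi-likelihood test with Benjamini-Hochberg adjustment over all genes tested, with 0.05 as the threshold. On day 4 that test called 0.105% of the 15172 genes in DN1 and 0.442% in DN3.

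On day 5 Tcf12 was at 94.0 and 121 CPM in DN1 floxed libraries, against 213 and 203 CPM in DN1 controls. It fell by 0.98 ± 0.10 on the log2 scale (adjusted p = 8.87e-06), where 5.02% of all genes were called. In DN3 it was at 334 and 306 CPM in floxed libraries, against 479 and 503 CPM in controls. The log2 change of -0.68 ± 0.10 also passed (adjusted p = 0.00021), with 9.76% of genes called. On day 7 Tcf12 stood at 110 and 103 CPM in DN1 floxed libraries, against 273 and 285 CPM in DN1 controls. DN3 floxed libraries held 165 and 146 CPM, against 515 and 513 CPM in DN3 controls. The log2 changes were -1.33 ± 0.10 (adjusted p = 6.53e-08) and -1.66 ± 0.10 (5.05e-09), in comparisons that called 22.5% and 24.9% of all genes. Leaving out 1 library moved these counts of called genes, in DN1 on day 7 from 3412 to 5803 without floxed replicate a and to 1688 without replicate b. Floxed means were 38.0% of the control mean in DN1 and 30.2% in DN3. Among the 15172 genes ranked by p, Tcf12 was number 6 in DN3 on day 7 and number 22 in DN1 on days 5 and 7.

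**Figure D1:**
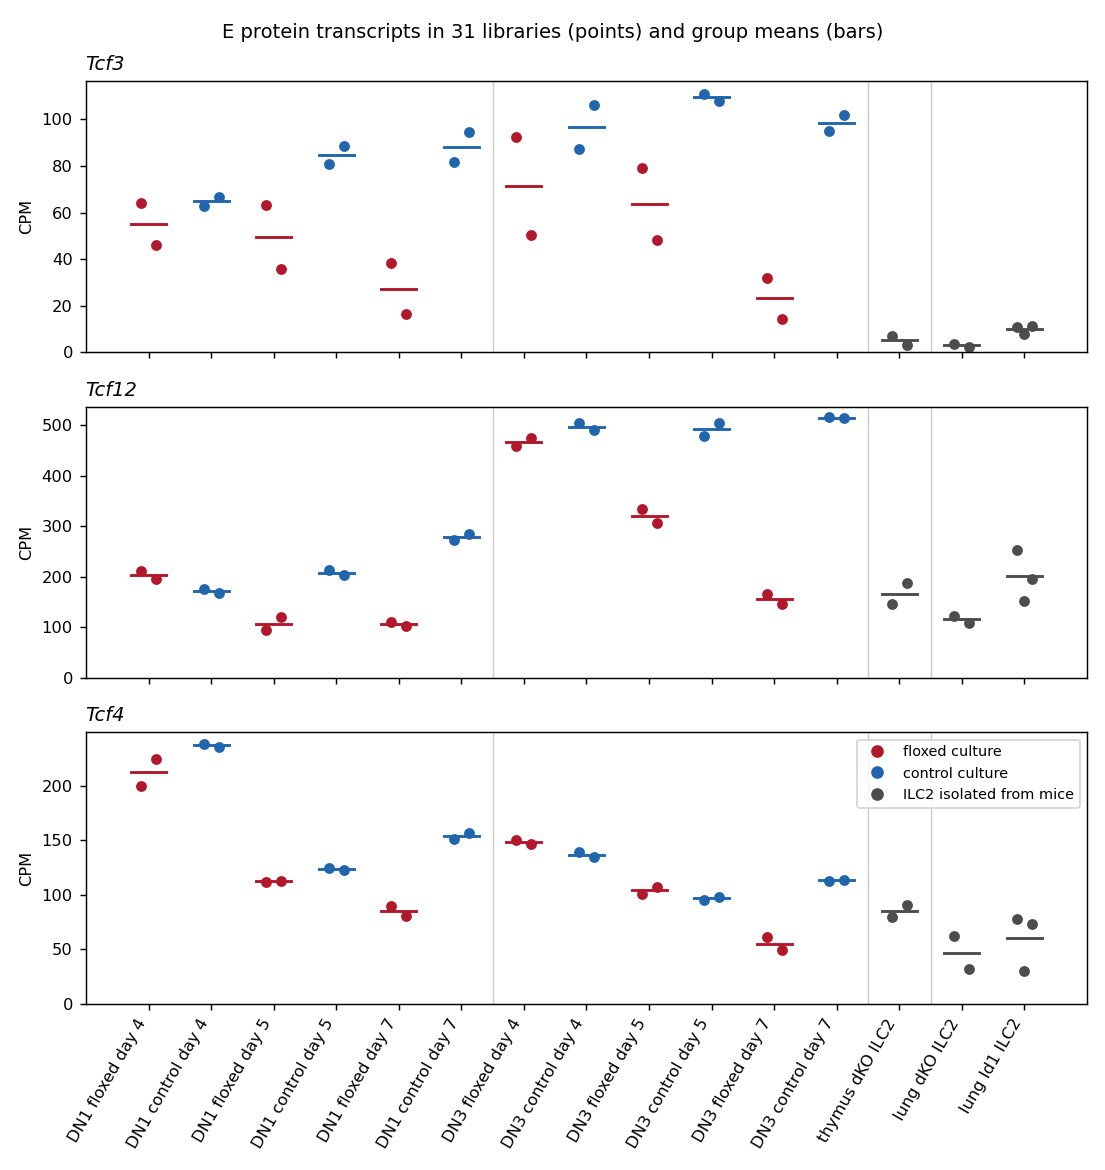
CPM of each E protein gene (y axis, linear from 0) in every library, as points, with the group mean as a bar, across the 15 groups on the x axis. Floxed cultures stand beside their controls and ILC2 groups at the right. On day 7 the floxed points of all 3 genes lie below their controls, with Tcf12 at 165 and 146 CPM in DN3 floxed and 515 and 513 CPM in DN3 control libraries.

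Tcf3 also fell, but its floxed libraries spread more and its difference passed on day 7 and not on day 5. On day 4 it was at 64.1 and 45.9 CPM in DN1 floxed libraries, against 62.8 and 66.8 CPM in DN1 controls, and the groups overlapped. DN3 floxed libraries held 92.4 and 50.3 CPM, against 87.1 and 106 CPM in DN3 controls, which overlapped too. On day 5 both floxed libraries of each precursor lay below its controls, but neither difference passed. DN1 floxed libraries held 63.2 and 35.6 CPM, against 80.7 and 88.6 CPM in DN1 controls. DN3 floxed libraries held 79.1 and 48.2 CPM, against 111 and 108 CPM in DN3 controls. These differences of -0.81 ± 0.35 and -0.84 ± 0.35 had adjusted p = 0.233 and 0.141. On day 7 Tcf3 was at 38.3 and 16.3 CPM in DN1 floxed libraries, against 81.6 and 94.6 CPM in DN1 controls. In DN3 it was at 32.0 and 14.5 CPM in floxed and 95.1 and 102 CPM in control libraries. Both day 7 changes passed, at -1.64 ± 0.37 (adjusted p = 0.00326) and -2.03 ± 0.38 (0.000475), which are fitted folds of 0.321 and 0.245. Without the DN1 floxed replicate b library, the one with muscle transcripts, the DN1 change was -1.17 (adjusted p = 0.0551). Fitted on the 4 DN1 day 7 libraries alone it was -1.64 (0.0584). Without the same library the DN1 day 7 change was -1.31 for Tcf12 (1.09e-06) and -0.74 for Tcf4 (0.000125).

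The Tcf3 spread followed the replicate letter. In each of the 6 floxed groups replicate b was below replicate a, at 0.426 to 0.716 of its CPM. This held on day 4 as well, before 4-OHT, with ratios of 0.716 in DN1 and 0.544 in DN3. Between the control replicates d and c the ratio ran from 0.973 to 1.22. Tcf12 and Tcf4 showed no such gap in the floxed cultures, with ratios of b to a from 0.885 to 1.29 and from 0.813 to 1.12. No source says what a letter stands for across days and precursors. What makes floxed replicate b differ from a in Tcf3 was not tested.

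**Figure D2:**
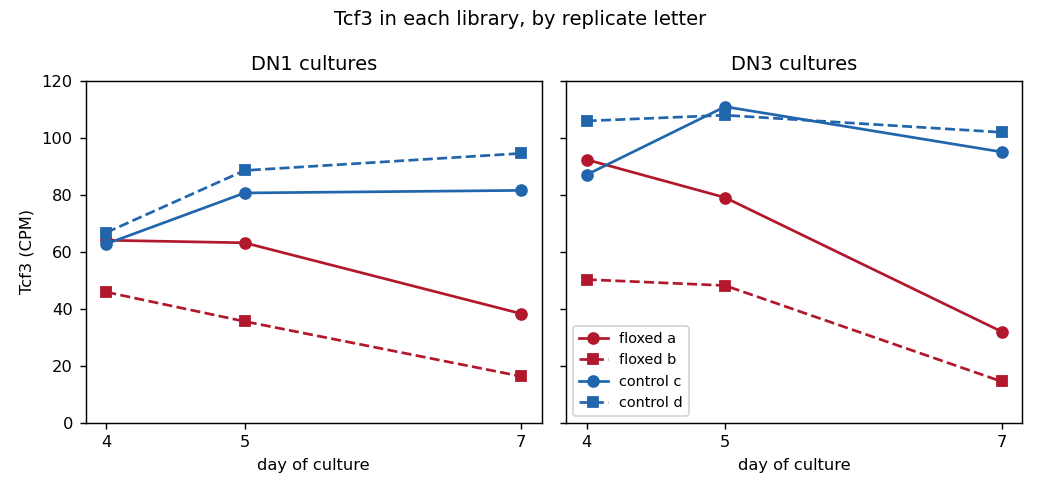
Tcf3 in CPM (y axis, linear from 0) against day of culture for each replicate letter, in DN1 and DN3 cultures. Floxed replicate b lies below floxed replicate a on every day, for example at 50.3 and 92.4 CPM in DN3 on day 4. The ratio of control replicate d to c runs from 0.973 to 1.22.

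Tcf4 (ENSMUSG00000053477), which was not targeted, fell on day 7 in both precursors. It lies at chr18:69343356-69689079 of GRCm38 on the plus strand, with 36 merged exons of 27382 bases. It was at 89.9 and 80.9 CPM in DN1 floxed libraries, against 151 and 157 CPM in DN1 controls. DN3 floxed libraries held 60.9 and 49.5 CPM, against 113 and 114 CPM in DN3 controls. The groups did not overlap, and the log2 changes were -0.79 ± 0.09 (adjusted p = 7.66e-06) and -0.98 ± 0.10 (6.38e-07). Floxed means were 55.5% and 48.4% of control. On day 5 Tcf4 had been at 112 and 113 CPM in DN1 floxed libraries, against 125 and 123 CPM in DN1 controls. DN3 floxed libraries had 101 and 107 CPM, against 95.6 and 98.0 CPM in DN3 controls. Those differences were -0.17 ± 0.09 and 0.04 ± 0.09 and did not pass (adjusted p = 0.368 and 0.857). On day 4 DN1 floxed libraries had 200 and 225 CPM, against 239 and 236 CPM in DN1 controls. DN3 floxed libraries had 150 and 147 CPM on day 4, against 139 and 135 CPM in DN3 controls. The genotypes lay apart on day 4 in both precursors, by less than passed the test (-0.16 ± 0.09 and 0.14 ± 0.09, adjusted p = 0.999 and 0.747). Day 4 cells were not sorted by reporter and held the most stromal marker RNA. The part of stromal cells in the day 4 levels was not tested. Markers of plasmacytoid dendritic cells, a type that expresses Tcf4, were lower as a sum in DN3 floxed libraries on day 7. In DN1 the floxed libraries lay on both sides of the controls. The 5 markers summed to 1.86 and 2.44 CPM in DN3 floxed libraries, against 26.5 and 29.7 CPM in DN3 controls, and to 3.86 and 60.6 CPM in DN1 floxed libraries, against 11.8 and 10.4 CPM in DN1 controls. Most of the control sums was Spib, an Ets family factor, at 22.9 and 24.5 CPM in DN3 and 10.7 and 9.86 CPM in DN1 controls, while Siglech, a defining marker, was at 0.142 CPM or less in these controls and Klk1 at 0. The value of 60.6 CPM is from the library with muscle transcripts and holds 58.5 CPM of Cox6a2, also a muscle gene. Their part in the fall of Tcf4 was not tested. In bulk libraries, fewer cells of a type and less RNA per cell cannot be told apart.

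Whether the day 7 fall of Tcf4 exceeded its earlier difference was tested as an interaction of genotype and day. From day 5 to day 7 the Tcf4 difference changed by -0.62 ± 0.13 in DN1 (adjusted p = 0.0209) and -1.02 ± 0.13 in DN3 (0.000295), where 1.63% and 7.2% of all genes passed. The DN1 value rests on few libraries. Without each of 7 of its 8 libraries in turn, all but the DN1 floxed day 7 replicate a library, it was between -0.65 and -0.57 with adjusted p from 0.0543 to 0.102. From day 4 to day 7 the change was -0.63 ± 0.13 in DN1 (0.00501) and -1.12 ± 0.13 in DN3 (3.64e-05), with 7.78% and 12.3% of genes passing. Tcf12 changed by -1.58 ± 0.14 (5.78e-06) and -1.59 ± 0.14 (3.27e-06) over the same days. From day 5 to day 7 the Tcf12 difference grew further in DN3 (-0.98 ± 0.14, 0.000534), and by -0.35 ± 0.14 in DN1, which did not pass (0.233). For Tcf3 the change from day 4 to day 7 was -1.61 ± 0.51 in DN3 (adjusted p = 0.044) and -1.41 ± 0.51 in DN1 (0.0984). The DN3 value had adjusted p from 0.0826 to 0.243 without any of the 4 control libraries, floxed day 4 replicate a or floxed day 7 replicate b, and 0.0629 in DESeq2. The interaction of precursor and genotype passed for none of the 3 genes in edgeR or DESeq2, and 1 of 3 had an unadjusted p under 0.05 on each day. On day 7 the DN3 response minus the DN1 response was -0.40 ± 0.52 for Tcf3, -0.33 ± 0.14 for Tcf12 and -0.19 ± 0.13 for Tcf4 (adjusted p = 0.703, 0.176 and 0.43), where 7.79% of genes passed. On day 5 these values were -0.03 ± 0.49, 0.30 ± 0.14 and 0.21 ± 0.13 (1, 0.386 and 0.558), where 1.36% passed.

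**Figure D3:**
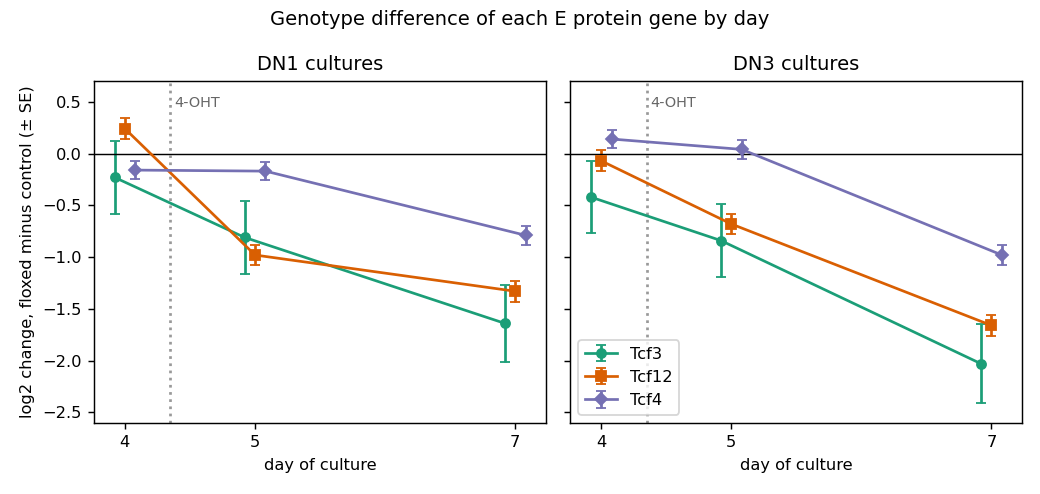
Log2 change of floxed minus control with its standard error (y axis) against day of culture for the 3 genes, in DN1 and DN3 cultures. The dotted line marks 4-OHT, given on day 4 after that day's libraries. Tcf12 lies below 0 from day 5, at -0.98 in DN1 and -0.68 in DN3, and Tcf4 at -0.79 and -0.98 on day 7.

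Days 5 and 7 were also compared within each genotype. Between day 5 and day 7 Tcf12 in DN3 floxed cultures fell by 0.96 ± 0.10 on the log2 scale (adjusted p = 1.07e-06), in a comparison that called 24.5% of genes. In DN1 floxed cultures it stood at -0.01 ± 0.10 over the same days (0.987, 21.5% of genes called). The difference between these 2 courses was not tested. Tcf3 fell in DN3 floxed cultures too (-1.39 ± 0.38, 0.00981), but had adjusted p = 0.148 without day 5 replicate a and 0.187 without day 7 replicate b. In DN1 floxed cultures Tcf3 had -0.85 ± 0.37 (0.109), and without day 7 replicate a -1.58 (0.00757). Tcf4 fell in floxed cultures of both precursors, by 0.84 ± 0.10 in DN3 (2.99e-06) and 0.39 ± 0.09 in DN1 (0.00698). The DN1 value was -0.34 without day 7 replicate b (0.0607). In DN1 controls Tcf12 rose between these days by 0.34 ± 0.10 (0.0306, 13.1% of genes called). That call was lost without any 1 of the 4 libraries (0.30 to 0.39, adjusted p from 0.105 to 0.206). In DN3 controls none of the 3 genes passed in edgeR or DESeq2, nor had an unadjusted p under 0.05, where 20.3% of genes were called.

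Without floxed alleles, DN3 cells held more Tcf12 and less Tcf4 than DN1 cells on every day. Tcf12 was at 504 and 489 CPM in DN3 control libraries on day 4, against 176 and 167 CPM in DN1 controls. On day 7 it was at 515 and 513 CPM in DN3 controls, against 273 and 285 CPM in DN1 controls. The log2 differences were 1.49, 1.22 and 0.89 on days 4, 5 and 7, each ± 0.10, with adjusted p = 8.29e-09, 4.31e-08 and 2.67e-06. Tcf4 differed by -0.83 on day 4, -0.37 on day 5 and -0.42 on day 7, each ± 0.09 (1.24e-06, 0.00489 and 0.00231). These comparisons called 39.7%, 30% and 22.6% of all genes. On day 4 the stromal list was higher in DN1 libraries, as given above, and its part in the day 4 difference was not tested. On days 5 and 7, when that list was low in both precursors, both differences had the same sign. Tcf3 differed by 0.54, 0.35 and 0.17 on the 3 days with adjusted p = 0.242, 0.492 and 0.782. Fitted on each day's 4 control libraries alone, its difference passed on days 4 (0.63, 3.81e-05) and 5 (0.35, 0.0158).

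Levels of different genes were compared per length, as TPM, counts divided by the merged exon length of each gene and scaled to an equal library total. In DN3 controls on day 7 this gave 46.1 ± 1.9 TPM of Tcf3, 62.6 ± 0.517 of Tcf12 and 7.86 ± 0.0131 of Tcf4 (SD, n = 2). By group means Tcf12 was first of the 3 in every DN3 and ILC2 group, also when the longest transcript was used as length. In DN1 groups the order depended on the length. With merged exons Tcf3 led in all DN1 groups except floxed day 7. With the longest transcript Tcf12 led in all DN1 groups except control day 4, where Tcf4 led. The share of Tcf12 in the summed TPM (mean ± SD, n = 2 or, in lung Id1, 3) was 57.3% ± 8.71 in DN3 floxed and 53.7% ± 1.07 in DN3 control cultures on day 7. In DN1 it was 42.2% ± 9.21 in floxed and 39.6% ± 1.37 in control cultures. It reached 70.6% ± 5.36 in thymus dKO, 75.6% ± 5.97 in lung dKO and 73.7% ± 3.42 in lung Id1 ILC2, where the share of Tcf3 was 8.76%, 7.44% and 14.2%. The summed TPM of the 3 genes was 30.6 in DN1 floxed and 83.7 in DN1 control cultures on day 7, or 36.6% of control. In DN3 it was 33.8 in floxed and 117 in control cultures, or 28.9%. On day 5 it was 59.7% of control in DN1 and 64.2% in DN3, and on day 4 96.2% and 85.9%.

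**Figure D4:**
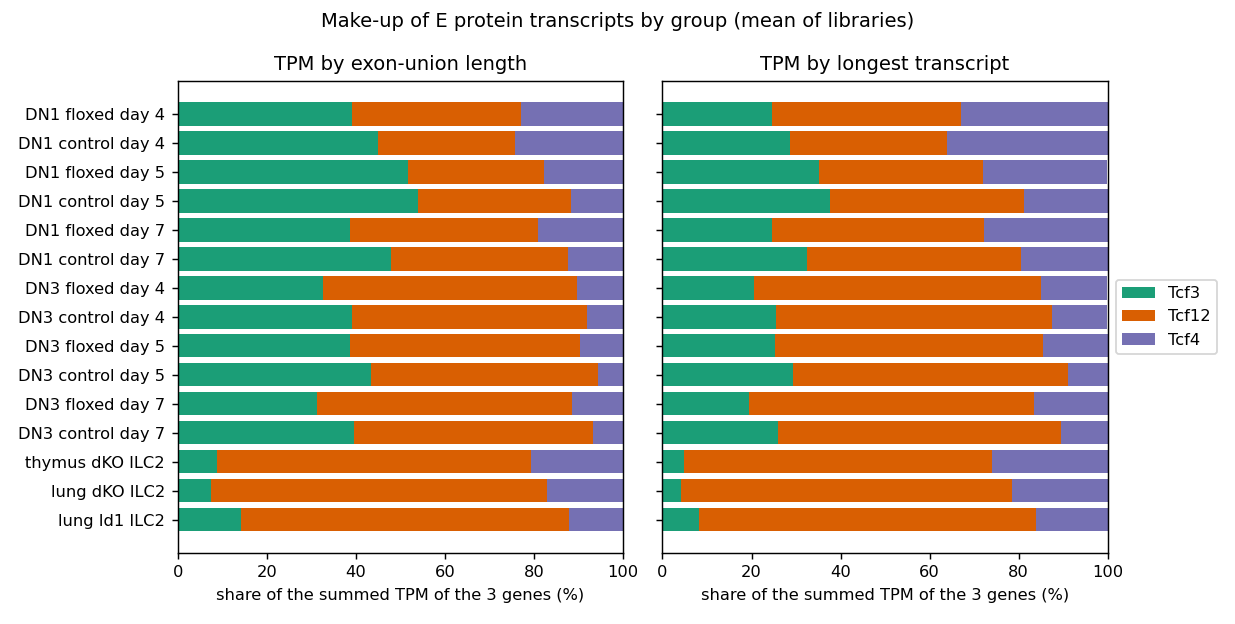
Share of each gene in the summed TPM of Tcf3, Tcf12 and Tcf4 (x axis, percent, mean of the libraries of a group) for the 15 groups, with TPM from merged exon length at the left and from the longest transcript at the right. Tcf12 makes up 70.6% to 75.6% of the sum in the 3 ILC2 groups by merged exons, and Tcf3 the least there by the longest transcript.

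In ILC2 from the dKO thymus Tcf3 was lower than in any culture, while Tcf12 was not. Tcf3 was at 7.05 and 3.32 CPM in the thymus dKO libraries, against 38.3 and 16.3 CPM in DN1 floxed and 32.0 and 14.5 CPM in DN3 floxed cultures on day 7. The 7.05 and 3.32 CPM rest on 40 and 16 counts, with exact Poisson 95% intervals of 5.04 to 9.61 and 1.90 to 5.39 CPM that cover counting error only. Tcf12 was at 146 and 187 CPM in thymus dKO libraries, above the 110 and 103 CPM of DN1 floxed cultures and overlapping the 165 and 146 CPM of DN3 floxed cultures. Tcf4 was at 79.9 and 90.7 CPM, overlapping the 89.9 and 80.9 CPM of DN1 floxed cultures and above the 60.9 and 49.5 CPM of DN3 floxed cultures.

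The thymus dKO libraries differed from the cultures in most genes. Against DN1 and DN3 floxed cultures on day 7, 73.7% and 71.8% of 16391 genes were called, so a call by itself says little about the E proteins. The median log2 change of all genes was -0.26 and -0.20 after TMM scaling and -0.99 and -0.92 with library totals. A change of scaling shifts all genes of a comparison alike, so distances from that median are nearly the same under both by construction. With TMM and with totals, Tcf3 lay at -1.33 and -1.37 from it against DN1, and at -1.17 and -1.19 against DN3. Tcf12 lay 1.64 above it against DN1 and 1.02 above it against DN3 under both scalings. Tcf4 lay 1.56 and 1.55 above it against DN3, and 0.99 above it against DN1 with totals. As TMM-scaled changes, Tcf3 had -1.59 ± 0.48 (adjusted p = 0.00551) against DN1 and -1.37 ± 0.49 (0.0172) against DN3. Tcf12 had 1.38 ± 0.11 (3.74e-10) and 0.82 ± 0.11 (1.22e-06), and Tcf4 0.74 ± 0.10 (1.65e-06) and 1.36 ± 0.11 (2.11e-10). With library totals, Tcf4 against DN1 was 0.00 (adjusted p = 1.0) and Tcf12 against DN3 0.10 (0.466). The Tcf3 call against DN1 was lost without DN1 floxed day 7 replicate a (-0.97, 0.106) or thymus replicate 3 (-1.06, 0.115). That against DN3 was lost without DN3 floxed day 7 replicate a (-0.78, 0.214) or thymus replicate 3 (-0.84, 0.222). Cell source, culture and sex markers differ as well, and library preparation may. Xist was at 0.176 and 0.208 CPM in thymus dKO libraries, against 1278 to 1884 CPM in floxed cultures on day 7. The 4 Y-linked genes summed to 298 and 362 CPM in thymus dKO libraries, against 0.508 to 2.53 CPM in those cultures. The parts of these factors in the differences cannot be told apart.

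Gene loci that lie within introns of Tcf12 on the same strand were also read, since none of them overlaps a Tcf12 exon. These 7 loci summed to 160 and 191 CPM in thymus dKO, 146 and 110 CPM in lung dKO and 267, 86.3 and 193 CPM in lung Id1 libraries. In the 24 cultures they summed to 6.85 to 50.4 CPM. Each ILC2 library was above each culture. Their part in the Tcf12 exon counts was not tested.

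In lung ILC2 none of the 3 genes passed between dKO and Id1 mice in edgeR or DESeq2, nor had an unadjusted p under 0.05, where 18.1% of 19371 genes were called. That count of 3499 genes was 183 without lung dKO replicate 3, 1785 without lung Id1 replicate 1, 2050 without lung Id1 replicate 3 and 5774 without lung dKO replicate 1. Tcf3 was at 3.55 and 2.44 CPM in lung dKO libraries, against 10.9, 7.75 and 11.2 CPM in lung Id1 libraries. The groups did not overlap, and the difference was -1.66 ± 0.84 (adjusted p = 0.197). The dKO values rest on 20 and 9 counts, with exact Poisson 95% intervals of 2.17 to 5.49 and 1.11 to 4.62 CPM. Tcf12 was at 122 and 109 CPM in lung dKO, against 253, 153 and 196 CPM in lung Id1 libraries, again without overlap (-0.71 ± 0.33, adjusted p = 0.162). Tcf4 was at 62.0 and 31.9 CPM in lung dKO, against 78.2, 30.4 and 73.4 CPM in lung Id1 libraries, which overlapped (-0.29 ± 0.40, 0.658). In the lung dKO libraries the plasmacytoid dendritic cell list, a cell type that expresses Tcf4, summed to 12.4 and 14.9 CPM, against 1.07, 1.65 and 1.07 CPM in lung Id1 libraries. A B cell list summed to 48.2 and 17.0 CPM in lung dKO, against 0.918, 5.07 and 4.09 CPM in lung Id1 libraries. The stromal list summed to 76.2 and 137 CPM in lung dKO, against 5.28, 20.4 and 6.75 CPM in lung Id1, and the skeletal muscle list to 84.1 and 138 CPM in lung dKO, against 24.1, 17.8 and 28.5 CPM in lung Id1 libraries. Lung dKO replicate 3 also held less of the ILC2 list than replicate 1, at 2534 and 6307 CPM, and of the T precursor list, at 52.5 and 335 CPM. Their part in these values was not tested. Between 29734 and 30196 genes had a count in lung dKO libraries, against 22504 to 24722 in lung Id1 libraries. The lung libraries varied strongly, with a common biological coefficient of variation of 0.706 against 0.138 in the cultures. Between dKO ILC2 of thymus and lung, Tcf3 overlapped, at 7.05 and 3.32 CPM in thymus and 3.55 and 2.44 CPM in lung. Tcf12 was at 146 and 187 CPM in thymus and 122 and 109 CPM in lung, and Tcf4 at 79.9 and 90.7 CPM in thymus and 62.0 and 31.9 CPM in lung. Tissue and table go together in these values, which were not tested.

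The labels were set against marker lists. Of the T precursor genes, a list of 8 summed to 2522 to 3248 CPM in DN3 control and 249 to 1099 CPM in DN1 control cultures. On day 7 it summed to 984 and 976 CPM in DN3 floxed and 335 and 378 CPM in DN1 floxed libraries, and to 459 and 512 CPM in thymus dKO ILC2. By CPM, scaled by library totals, a list of 10 ILC2 genes did not set the thymus dKO ILC2 above the day 7 floxed cultures. It summed to 1508 and 2303 CPM in thymus dKO, 6307 and 2534 CPM in lung dKO and 7623, 4723 and 7653 CPM in lung Id1 ILC2, against 2563 to 2932 CPM in floxed cultures on day 7. Such sums depend on the scaling and were not recomputed with TMM. Between thymus dKO and DN1 or DN3 floxed cultures, the median log2 change of all genes was -0.99 and -0.92 with totals. With TMM it was -0.26 and -0.20. Il1rl1, the IL-33 receptor gene of ILC2, was at 144 and 385 CPM in thymus dKO, 2020 and 844 CPM in lung dKO and 1710, 1230 and 1730 CPM in lung Id1 libraries. In cultures on day 7 it was at 1.08 CPM or less. Gata3, a factor of ILC2 and T cells, was at 78.1 and 145 CPM in thymus dKO. Genes of T precursors were present there too, with means of 54.1 CPM of Rag1, 61.5 of Rag2, 119 of Dntt and 177 of Cd3e. On day 7 their means were 3.29, 0.519, 12.7 and 6.94 CPM in DN1 floxed cultures. In DN3 floxed cultures they were 7.55, 1.27, 59.0 and 143 CPM. Cd3e overlapped there, at 132 and 154 CPM in DN3 floxed and 114 and 239 CPM in thymus dKO libraries. By CPM the sum of the 8 listed genes was lower in thymus dKO than in DN3 floxed libraries, as given above. The part of T precursors in the thymus dKO values was not tested. Of the 5 plasmacytoid dendritic cell markers, Siglech, Cox6a2 and Klk1 were at 0 in both thymus dKO libraries. Their sum there was 0.176 and 0.208 CPM. In cultures Klk1 was at 0 in all 24 libraries. Siglech was at 0.271 CPM or less in cultures on day 7, when Tcf4 was at 49.5 to 157 CPM.

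Across the 15 groups Tcf3 means ran from 2.99 CPM in lung dKO ILC2 to 109 CPM in DN3 controls on day 5. Of the 14 pairs of neighbours in that order, 11 overlapped in their libraries. Every control group but DN1 day 4 was above every floxed group of the same or another precursor by its mean, and all ILC2 groups were below all cultures. Tcf12 means ran from 106 CPM in DN1 floxed day 7 to 514 CPM in DN3 control day 7, and 8 of 14 neighbouring pairs overlapped. The 5 highest groups were the DN3 groups other than floxed day 7. Tcf4 means ran from 47.0 CPM in lung dKO ILC2 to 237 CPM in DN1 control day 4, and 4 of 14 neighbouring pairs overlapped. Its lowest culture group was DN3 floxed day 7, at 55.2 CPM. Overlapping pairs were not counted for other genes, so the counts of the 3 genes have no reference and are description only.

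Genes that act with or under E proteins were read from lists. Of 4 Id genes tested, 1 rose and 2 fell on day 7 in each precursor, where 22.5% and 24.9% of all genes were called. Id4 had no count in these day 7 libraries, so no median is given. Id2 was at 702 CPM in DN1 floxed and 145 CPM in DN1 control cultures on day 7 (2.34 ± 0.21, adjusted p = 3.01e-07), and at 313 and 203 CPM in DN3 floxed and DN3 control cultures (0.69 ± 0.20, 0.0149). On day 5 Id2 was at 38.6 CPM in DN3 floxed and 104 CPM in DN3 control cultures, so that it fell there (-1.49 ± 0.21, 0.000162), and in DN1 it did not pass (0.03 ± 0.21, 0.977). Id3 was at 85.6 and 268 CPM in DN1 floxed and control cultures (-1.59 ± 0.17, 2.26e-06), and at 67.6 and 317 CPM in DN3 floxed and control cultures (-2.17 ± 0.17, 6.98e-08). On day 5 Id3 rose in DN1 (1.11 ± 0.17, 0.000536) and fell in DN3 (-1.28 ± 0.17, 6.57e-05). Id1 fell in both on day 7, by 1.35 ± 0.22 in DN1 (0.000189) and 0.72 ± 0.25 in DN3 (0.041), and in thymus dKO ILC2 Id3 was at 0 in both libraries.

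Of 20 tested E protein target genes of lymphocytes, 14 fell and 2 rose in DN1 on day 7, with a median log2 change of -1.61, where the median of all genes was 0.00 and 22.5% of all genes were called in either direction. In DN3 13 fell and 3 rose, with a median of -1.69 against -0.01 for all genes, of which 24.9% were called. On day 5 8 fell in each precursor and 1, Id3, rose in DN1, where 5.02% of all genes were called in DN1 and 9.76% in DN3. The list was put together with earlier results of these data known and is no independent evidence of a direction. Rag1, which cuts antigen receptor genes for rearrangement, was at 3.29 and 67.7 CPM in DN1 floxed and control cultures on day 7 (-4.30 ± 0.50, adjusted p = 5.96e-06). In DN3 it was at 12.5 and 2.57 CPM in floxed libraries, against 577 and 498 CPM in controls (-6.15 ± 0.47, 4.25e-08). Cd3g, a chain of the T cell receptor complex, was at 2.88 and 82.8 CPM in DN1 floxed and control cultures (-4.78 ± 0.29, 5.75e-09), and at 25.7 and 104 CPM in DN3 (-1.94 ± 0.23, 4.51e-06). Cd4, a coreceptor of thymocytes, fell in DN3 (-4.70 ± 0.58, 8.08e-06). In DN1 it was at 1.11 CPM in floxed and 1.17 CPM in control cultures on day 7 and did not pass.

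Of 6 tested partners, 2 fell in DN1 on day 7, Lyl1 and Lmo1, where 22.5% of all genes were called. Tal1, Lmo1, Lmo2 and Twist1 were at a mean of 0.155 CPM or less in both genotypes of DN3 on day 7, so no median is given. Lyl1, a class II factor of early progenitors, fell in DN1 to 6.05 CPM in floxed cultures, against 77.8 CPM in controls (-3.62 ± 0.33, adjusted p = 4.13e-07). In DN3 it was at 0.778 CPM in floxed and 1.59 CPM in control cultures (-0.89 ± 0.70, 0.409). Among 4 genes of a protein turnover list, medians on day 7 were 0.02 in DN1 and -0.38 in DN3. On that day 1 of the 4 rose in DN1 and 2 fell in DN3, where 22.5% and 24.9% of all genes were called. Of these Skp2 and Usp1 fell in DN3, with log2 changes of -1.05 ± 0.20 (0.000741) and -0.76 ± 0.10 (1.44e-05). In DN1 these were -0.28 ± 0.20 (0.324) and -0.14 ± 0.10 (0.307). Skp2 is part of a ubiquitin ligase and Usp1 a deubiquitinase. Asb2, another ubiquitin ligase part, was at 9.26 and 58.7 CPM in DN1 floxed libraries on day 7, against 0.728 and 0.499 CPM in DN1 controls (5.83 ± 0.88, 8.98e-05). The value of 58.7 CPM is from the library with muscle transcripts, whose part in it was not tested. Its DN3 values of 21.4 and 7.25 CPM in floxed and control cultures did not pass (1.63 ± 0.65, 0.0744). Of 7 coregulators, with medians of -0.14 in DN1 and -0.09 in DN3, Ep300, an acetyltransferase, rose in DN3 on day 7 (0.47 ± 0.13, 0.0106), and Cbfa2t3, a corepressor, fell (-0.80 ± 0.19, 0.00439), where 24.9% of all genes were called. In DN1 they had 0.12 ± 0.13 (0.548) and 0.08 ± 0.19 (0.815).

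The genes most like each member were sought among 7760 genes by Pearson's r of log2(CPM + 1) over the 12 culture group means, as a description. The 12 points are means of 2 libraries each and share precursors and genotypes, and no p is given. Tcf12 was most like Lman2l (r = 0.989), Tmem151b (0.987), Dntt (0.983), Ptprf (0.977) and Rag1 (0.975), and least like Tagln2 (-0.956), Slc45a3 (-0.953) and Extl3 (-0.951). Dntt, the terminal transferase of receptor rearrangement, had 12.7 CPM in DN1 floxed day 7 as its lowest group mean and 1028 CPM in DN3 control day 5 as its highest. Tcf3 was most like Prss57 (0.948), Tcof1 (0.944), Ccdc14 (0.940), Plk1 (0.935) and Hibadh (0.923), and least like Pip4k2c (-0.951), Pygo2 (-0.946) and Rara (-0.943). Plk1, a kinase of mitosis, ran from 76.5 CPM in DN3 floxed day 7 to 667 CPM in DN3 control day 5. Tcf4 was most like Skap2 (0.944), Arhgef40 (0.938), Tcf7l2 (0.935), Riox2 (0.932) and Slc5a3 (0.930), and least like Csk (-0.973), Gna13 (-0.962) and Ptp4a2 (-0.959). All 5 genes most like Tcf4 were lowest in DN3 floxed day 7 and highest in DN1 control day 4, a group with unsorted cells. Over the 8 group means of days 5 and 7 alone their r ran from 0.849 to 0.938. Among the members, r was 0.756 between Tcf3 and Tcf12, 0.476 between Tcf3 and Tcf4 and 0.102 between Tcf12 and Tcf4. Over the 8 group means of days 5 and 7 these were 0.789, 0.753 and 0.281.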

How the data were processed

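RNA-seq was measured in 31 mouse libraries. The deposited values are raw counts per gene, 26 libraries of cultures and thymus in one table and 5 of lung in another. The submitters' processing notes name build mm10 and DESeq2, and no source used here names the aligner, counter or annotation. GENCODE M21 gave a name to 48664 of 48881 identifiers. Groups were taken from sample titles. The labels of DN1 day 7 libraries give 4-OHT on day 7 and the design text day 4, which was used.

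Counts were tested with edgeR 4.0.16 (R 4.3.3): filterByExpr with a minimum count of 10, TMM scaling, 1 mean per group and quasi-likelihood tests. The 24 cultures (15172 genes, 12 residual degrees of freedom), the 26 thymus table libraries (16391, 13) and the 5 lung libraries (19371, 3) were fitted separately. P-values were adjusted by Benjamini-Hochberg over all genes tested. Standard errors were taken from the log2 change and F. CPM are scaled by library totals without TMM, and TPM use merged exon length. At 3695522 counts, the shallowest library, low CPM values rest on few counts. No libraries of a group agreed within sampling noise (chi-square per degree of freedom 3.5 to 150).

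Named genes are the 3 members, the 5 most and 3 least like each by r among genes of at least 20 CPM in a culture group, and the listed genes with the largest changes. Members and lists were chosen with earlier results of these data known. Alternatives were DESeq2 1.42.0, RLE scaling, no filter on low counts, each comparison's libraries alone, each library left out, a replicate block, another transcript length and, chosen after seeing the data, library totals and crossed letters. Lymph node samples are not analysed here.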

Additional observations from a re-analysis of the deposited data

Results flagged for a closer look

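The results below were singled out because the genotype difference itself differed between days in a test of the interaction. From day 4 to day 7 the Tcf12 difference changed by -1.58 ± 0.14 in DN1 and -1.59 ± 0.14 in DN3 cultures, which was lower in 2 of 2 floxed libraries in each on day 7. The untargeted Tcf4 changed by -0.63 ± 0.13 in DN1 and -1.12 ± 0.13 in DN3 over these days. Tcf3 changed by -1.61 ± 0.51 in DN3. As given above, that call was lost in DESeq2 and when any 1 of 6 of its 8 libraries was left out.

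From day 5 to day 7, when both libraries came from sorted cells, the Tcf4 difference changed by -0.62 ± 0.13 in DN1 and -1.02 ± 0.13 in DN3. The DN1 call was lost when any 1 of 7 of its 8 libraries was left out. Over these days the Tcf12 difference changed by -0.98 ± 0.14 in DN3. The genotypes also differ in sex markers on every day, and the part of sex was not tested.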

How the results depend on the processing

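Of 675 recomputed values of the 66 tested results, 603 kept their direction and their side of the threshold, 35 lost a call, 19 gained one and 18 changed sign, each of these without a call under either setting. The cause of these changes was not tested. In every alternative run, Tcf12 fell on days 5 and 7, and Tcf4 on day 7, in floxed cells of both precursors.

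DESeq2 gave no call for Tcf3 from day 4 to 7 in DN3 (-1.59) and against DN3 in thymus ILC2 (-1.05). RLE scaling gave -1.04 there. Library totals gave 0.10 for Tcf12 against DN3 and 0.00 for Tcf4 against DN1 in thymus ILC2, without calls, and a call for Tcf4 between days 5 and 7 in DN1 controls (0.31). The libraries of a comparison alone gave no call for Tcf3 in DN1 on day 7 (-1.64), Tcf3 in thymus ILC2 against DN1 (-1.48) and DN3 (-1.21) and Tcf4 between days 5 and 7 in DN1 floxed cultures (-0.38). They gave calls for Tcf3 between DN3 and DN1 controls on days 4 (0.63) and 5 (0.35), Tcf3 in DN3 on day 5 (-0.84) and Tcf4 between days 5 and 7 in DN1 controls (0.23).

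Without a filter on low counts Tcf3 gained calls between DN3 and DN1 controls on day 4 (0.63), from day 4 to 7 in DN1 (-1.45), from day 5 to 7 in DN1 (-0.86) and DN3 (-1.18), between days 5 and 7 in DN1 floxed cultures (-0.84), and on day 5 in DN1 (-0.80) and DN3 (-0.83).

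A replicate block gave calls for Tcf3 from day 4 to 7 in DN1 (-1.47), from day 5 to 7 in DN1 (-0.86) and DN3 (-1.22) and between days 5 and 7 in DN1 floxed cultures (-0.89), and none for Tcf12 in DN1 controls (0.34, adjusted p = 0.0509). The other calls refitted with a replicate block held. It was fitted for the day comparisons, the changes of the genotype difference over days and the lung, and not for the other comparisons. Same-letter deviations correlated between days at -0.201 to 0.456, not over 0.1 in every pair though 0.284 to 0.456 in DN3 floxed cultures, and at -0.0457 and -0.0785 by number in the lung, so the letters were not taken to pair libraries. Crossed letters called 970 genes between days 5 and 7 in DN1 floxed cultures, against 377 with the same letters, and 4485 against 3551 in DN3 controls.

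Values near 0 changed sign. Between days 5 and 7, Tcf12 in DN1 floxed cultures was 0.02 with DESeq2 and RLE and 0.01 alone, and in DN3 controls -0.01 alone. Tcf3 in DN1 controls was 0.00 with DESeq2, 0.06 with library totals and 0.02 without a filter.

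Leaving out 1 library at a time gave these ranges where a call or sign changed. Between days 5 and 7, Tcf12 ran from 0.30 to 0.39 in DN1 controls, -0.19 to 0.19 in DN1 floxed cultures and -0.04 to 0.04 in DN3 controls. Tcf3 ran from -0.14 to 0.08 in DN1 controls, -1.58 to -0.38 in DN1 floxed and -2.05 to -0.93 in DN3 floxed cultures, and Tcf4 from -0.45 to -0.34 in DN1 floxed cultures. The Tcf3 difference changed from day 4 to 7 by -2.14 to -0.95 in DN1 and -2.26 to -1.13 in DN3, and from day 5 to 7 by -1.56 to -0.36 in DN1. The Tcf4 difference changed from day 5 to 7 by -0.69 to -0.57 in DN1. The Tcf3 difference was -2.37 to -1.17 in DN1 on day 7. That in DN3 minus that in DN1 was -0.44 to 0.43 on day 5 and -1.05 to 0.32 on day 7. In thymus ILC2 it was -2.42 to -0.97 against DN1 and -2.20 to -0.78 against DN3, and Tcf4 in DN3 on day 5 was 0.00 to 0.08.

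The number of genes called in DN1 on day 4 was 16, against 49 with DESeq2, 229 without a filter and 38 alone. In DN3 on day 4 it was 67, against 257 without a filter, and in DN1 on day 7 3412, against 798 alone. Leaving out 1 library moved the number of called genes by over 1.5 times in 19 of 22 comparisons. It ran from 225 to 685 in DN1 and 449 to 1203 in DN3 on day 5 (all libraries 761 and 1481), from 1688 to 5803 in DN1 and 2149 to 2878 in DN3 on day 7 (3412 and 3775), and from 183 to 5774 in the lung (3499). Few counts limit Tcf3 in ILC2, where a library held 9 to 142.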
